A study of Mus musculus with 96 samples.

Results

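The 6 bladder libraries of a survey of *Scx* in mouse tissues are described here, 3 from wild-type mice and 3 from *Scx*-/- mice, which lack the transcription factor scleraxis. They were taken by their labels from the 96 libraries of the series, which cover 16 tissues with 3 replicates per tissue and genotype. Genotypes were compared over the 15160 genes with a count in at least one of the 6 libraries, out of 41575 genes listed. Mice of both genotypes were 3 weeks old, and the labels name no treatment. Bladders were taken whole at necropsy and frozen in liquid nitrogen. The sources used here do not give the sex of the mice, how the *Scx* allele was made, or whether each library came from its own mouse, so the p-values measure only the spread between these libraries, which may be technical.

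Scleraxis is a basic helix-loop-helix factor that binds E-box sequences, and it is best known as a marker and regulator of tendon and ligament progenitors and of their collagen genes. The bladder wall consists of an inner urothelium that carries uroplakin plaques, a lamina propria of fibroblasts and collagen, and the detrusor, a coat of smooth muscle bundles wrapped in connective tissue. Type I and type III collagens give that wall its tensile strength, and elastic fibres let it fill and recoil.

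*Scx* had 0 counts in all 6 bladder libraries. A count of 0 allows up to 1.89 CPM (counts scaled to a library total of 1000000) over the 1585555 counts of the wild-type libraries and up to 3.07 CPM over the 976032 counts of the *Scx*-/- libraries, with 3 counts taken as the limit, which covers counting error only. The genotype labels could thus not be checked on the targeted gene in bladder. In bone, *Scx* had a mean of 63.2 CPM in wild-type and 0 CPM in *Scx*-/- libraries. In cartilage, its means were 10.6 CPM in wild-type and 12.4 CPM in *Scx*-/- libraries, from 17 counts in total. Cortex, kidney, lung, muscle, stomach and vascular samples held *Scx* in wild-type libraries only. Their wild-type means were 2.21 to 9.13 CPM, from 3 to 18 counts per tissue.

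The libraries held 437302 to 587936 counts in wild-type bladder and 243008 to 412594 in *Scx*-/- bladder, ranges that did not overlap. With every library thinned to 243008 counts, 16 genes had an adjusted *p* under 0.05 in edgeR's quasi-likelihood test, and *Rnr1*, *Rnr2* and *Dpt*, which are among the 17 genes described next, were not among the 16. Uroplakins, which define urothelium, made up 0.454% to 0.938% of the counts of each library, and smooth muscle contractile genes made up 5.45% to 9.50%. *Xist* exceeded the summed Y-linked genes in wild-type replicates 1 and 3 and in *Scx*-/- replicate 1, and the reverse held in the other 3 libraries, so the sex-linked patterns were not equally spread over the genotypes. *Scx*-/- replicate 2 held *Xist* at 59.3 CPM beside Y-linked genes at 222 CPM. The part of sex in the results was not tested. In bulk tissue, fewer cells of a type and less RNA per cell cannot be told apart.

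In the fit over all genes with a count, 8 matrix genes were lower in *Scx*-/- bladder, and DESeq2 also called all 8. Of the 15160 genes, 17 (0.112%) had an adjusted *p* under 0.05 in the quasi-likelihood test of edgeR after Benjamini-Hochberg adjustment, 12 of them lower (0.0792%) and 5 higher (0.033%) in *Scx*-/- mice. Of the 12 lower genes, 8 encode collagens, collagen-handling proteins or fibrillin (*Col1a1*, *Col1a2*, *Col3a1*, *Col14a1*, *Sparc*, *Serpinh1*, *Pcolce* and *Fbn1*). The others were *Dpt*, which encodes the fibroblast matrix protein dermatopontin, and the rRNA genes *Rn18s-rs5*, *Rnr1* and *Rnr2*. The 5 higher genes were *Apoa2*, *Serpina1c*, *Serpina1d* and *Fga*, which encode plasma proteins made by liver, and *Rnase1*, a secreted ribonuclease abundant in pancreas. At the thresholds of the study, an unadjusted *p* under 0.05 and more than a 2-fold change, 274 genes were higher (1.81%) and 296 lower (1.95%), of which 377 averaged under 50 CPM. An unadjusted *p* under 0.05 alone was reached by 657 genes, or 4.33%, which is below the share that this threshold passes where no gene differs, so the genes named below for the study's thresholds alone are given as values.

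In 2 other edgeR fits the matrix calls were lost, with log2 fold changes still below 0. After filterByExpr, which removes genes of low count and kept 7093, 0 genes had an adjusted *p* under 0.05 in edgeR's quasi-likelihood test and 323 had an unadjusted *p* under 0.05. DESeq2 and limma-voom on the same 7093 genes called 15 and 12, of which 8 and 7 were lower matrix genes. A joint fit with stomach and rectum called 5 genes, 0 of them in the matrix lists, with 566 genes at an unadjusted *p* under 0.05. The adjusted *p* values printed below for single genes are those of the fit over all genes with a count.

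**Figure D1:**
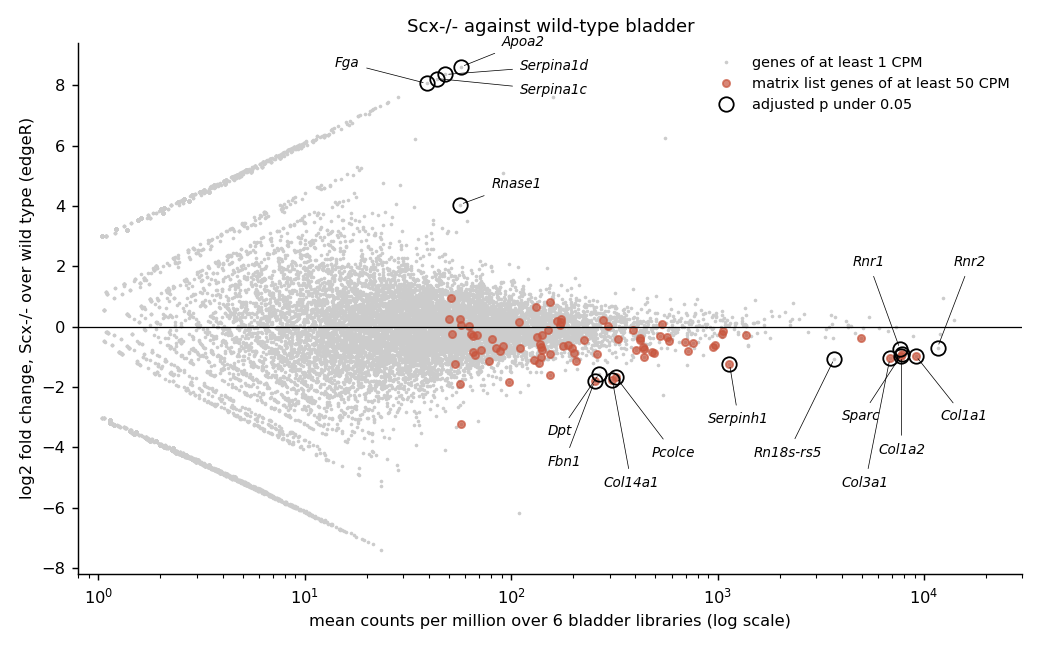
Each point is a gene, placed by its mean CPM over the 6 bladder libraries (x, log scale) and its edgeR log2 fold change, *Scx*-/- over wild type (y). Matrix list genes of at least 50 CPM are red, and the 17 genes with an adjusted *p* under 0.05 are circled and named, with 12 below and 5 above 0.

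The lists of matrix genes were read together: interstitial collagen chains, collagen processing and crosslinking, small proteoglycans and matrix glycoproteins, elastic fibres, basement membrane, and matrix proteases with their inhibitors. Of their 118 genes, 112 were tested, 8 of them lower and 0 higher at an adjusted *p* under 0.05 in edgeR's quasi-likelihood test. At an unadjusted *p* under 0.05 in edgeR, 28 were lower and 1 higher, beside 4.33% of all genes in either direction. At the study's thresholds 13 were lower and 1 was higher, beside 1.95% lower and 1.81% higher over all genes. Among the 80 matrix genes of at least 50 CPM, the median log2 fold change was −0.62, beside −0.036 over all 4091 genes of that level. The CPM of the genotypes did not overlap for 26 of these 80 genes in the lower direction and for 1 in the higher direction. Over all 4091 genes the corresponding shares were 6.09% lower and 6.7% higher. Together the matrix lists took 6.24%, 7.07% and 8.61% of the counts of the wild-type libraries and 4.03%, 4.77% and 4.86% of those of the *Scx*-/- libraries. The ratio of the means was 0.624, and an exact permutation test of 3 against 3 libraries gave its smallest possible two-sided *p* of 0.1. The lists were chosen with earlier results of these data known, so this *p* is no independent test of the matrix fall.

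The interstitial collagen chains, which form and decorate the fibrils of connective tissue, were the matrix group with the lowest share in *Scx*-/- bladder relative to wild type. They took 2.94%, 3.41% and 4.46% of counts in wild-type bladder and 1.63%, 2.08% and 2.13% in *Scx*-/- bladder, a ratio of 0.541. Leaving out any one library moved this ratio between 0.495 and 0.614. Of 13 chains tested, 4 had an adjusted *p* under 0.05 in edgeR's quasi-likelihood test, all lower, and the log2 fold changes of all 12 chains of at least 50 CPM were below 0. *Col1a1*, one chain of type I collagen, had 9316, 11344 and 14889 CPM in the wild-type libraries and 5679, 6395 and 7094 CPM in the *Scx*-/- libraries. Every *Scx*-/- library lay below every wild-type library, with means of 11849 ± 2821 and 6389 ± 708 CPM (SD, n = 3 each). The fitted log2 fold change was −0.96 (SE 0.17), with an adjusted *p* of 0.000146 in edgeR's quasi-likelihood test.

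*Col1a2*, the partner chain of type I collagen, had 8258, 9948 and 12131 CPM in wild-type and 4767, 5749 and 5794 CPM in *Scx*-/- bladder, with a log2 fold change of −0.97 (SE 0.18). *Col3a1*, the chain of type III collagen, which is typical of distensible organs, had 7399, 8122 and 11694 CPM in wild-type and 3510, 5465 and 4835 CPM in *Scx*-/- bladder. For both genes the genotypes did not overlap, and the highest wild-type value came from replicate 3. The log2 fold change of *Col3a1* was −1.05 (SE 0.18), and the edgeR adjusted *p* was 0.00023 for *Col1a2* and 7.86e-05 for *Col3a1*. *Col14a1*, which encodes a collagen that sits on the surface of type I fibrils, had 434, 439 and 537 CPM in wild-type and 116, 153 and 173 CPM in *Scx*-/- bladder. Its 3 *Scx*-/- values lay far below the wild-type range, and its log2 fold change of −1.75 (SE 0.37, edgeR adjusted *p* 0.00255) was larger than those of the chains of types I and III. *Col5a1*, a type V chain that nucleates fibrils, passed only the study's thresholds among the remaining chains, with means of 578 ± 102 and 304 ± 115 CPM (SD, n = 3 each). *Col5a2*, *Col6a1* and *Col6a2* also had no overlap between genotypes, with log2 fold changes of −0.87, −0.62 and −0.81 and unadjusted *p* values in edgeR of 0.00549, 0.0181 and 0.00399.

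**Figure D2:**
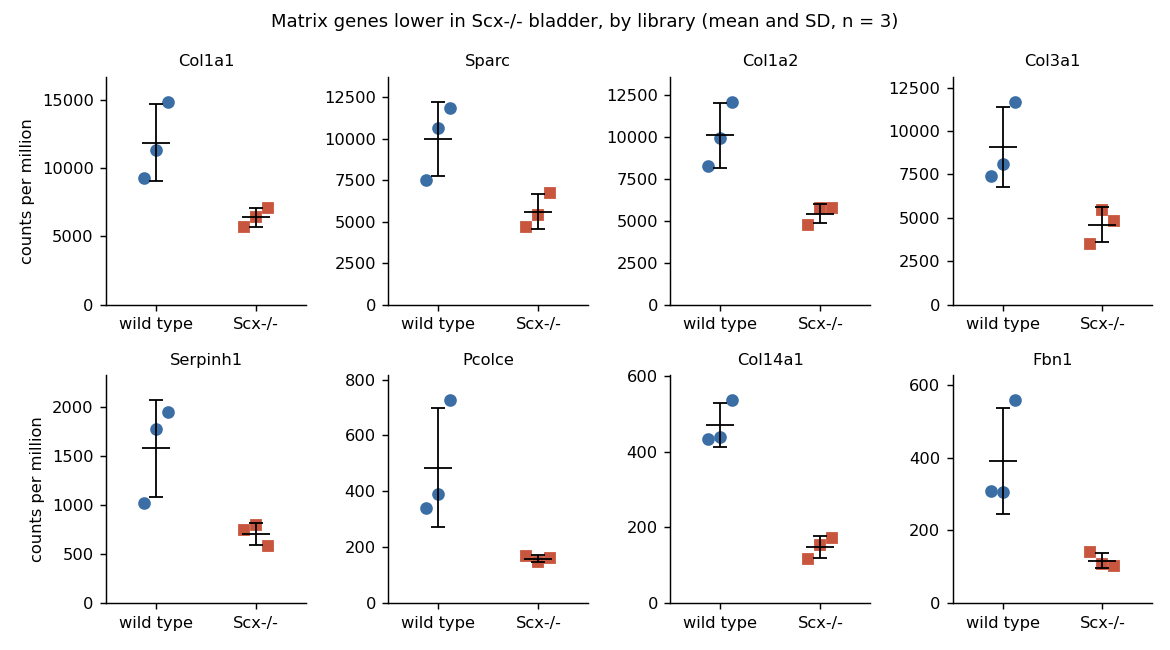
CPM (y, each panel from 0) of the 8 matrix genes with an adjusted *p* under 0.05, for the 3 wild-type (blue circles) and 3 *Scx*-/- (red squares) bladder libraries, with the mean and SD of each genotype in black. In every panel the *Scx*-/- points lie below all wild-type points, for *Col1a1* at 5679 to 7094 against 9316 to 14889 CPM.

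Because scleraxis binds E-boxes, the promoter windows of these genes were read for the letters CANNTG, which are their own reverse complement. The windows run from 250 bases before to 50 after a start annotated by RefSeq, are RefSeq sequence of GRCm38.p6, and were held for 6 of the 8 genes, *Col1a1* and *Col14a1* having no entry. In the GENCODE annotation, *Col1a2*, *Sparc*, *Pcolce* and *Fbn1* begin further upstream, so that their windows lie inside the GENCODE gene. Which start is used in bladder was not measured. Those of the 3 genes with the smallest p-values are shown, with CANNTG in capitals, on the strand of the gene. They lie at chr1:45311288-45311587 (plus strand), chr6:4505368-4505667 (plus strand) and chr11:55420031-55420330 (minus strand).

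Col3a1: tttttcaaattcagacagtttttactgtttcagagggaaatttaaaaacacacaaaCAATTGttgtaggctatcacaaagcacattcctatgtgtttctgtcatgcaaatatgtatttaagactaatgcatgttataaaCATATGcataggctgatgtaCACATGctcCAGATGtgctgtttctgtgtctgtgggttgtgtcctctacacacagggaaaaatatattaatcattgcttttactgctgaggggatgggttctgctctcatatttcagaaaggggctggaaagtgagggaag
Col1a2: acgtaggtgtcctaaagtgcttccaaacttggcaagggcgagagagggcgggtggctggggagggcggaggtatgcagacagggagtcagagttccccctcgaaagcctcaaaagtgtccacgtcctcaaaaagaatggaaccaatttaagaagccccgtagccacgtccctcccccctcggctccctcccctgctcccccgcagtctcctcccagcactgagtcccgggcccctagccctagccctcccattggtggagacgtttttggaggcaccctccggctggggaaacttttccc
Sparc: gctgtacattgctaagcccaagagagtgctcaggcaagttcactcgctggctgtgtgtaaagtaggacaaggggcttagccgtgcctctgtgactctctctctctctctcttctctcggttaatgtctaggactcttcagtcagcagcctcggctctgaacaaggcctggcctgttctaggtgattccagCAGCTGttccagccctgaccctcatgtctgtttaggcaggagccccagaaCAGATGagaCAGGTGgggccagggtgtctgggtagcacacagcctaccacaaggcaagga

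The window of *Col3a1* held 4 matches, that of *Col1a2* 0 and that of *Sparc* 3. *Pcolce* had 7 matches, *Fbn1* 1 and *Serpinh1* 0. At least 1 match was present in 72.3% of the 32851 promoter windows of the table, with a median of 1 per window. A match describes the letters only, and binding was not measured.

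Genes that process and crosslink collagen formed the second group. Of 21 tested, 3 were lower at an adjusted *p* under 0.05 in edgeR's quasi-likelihood test and 4 at the study's thresholds, with none higher by either criterion, and the list took 1.10% to 1.72% of counts in wild-type and 0.737% to 0.918% in *Scx*-/- bladder. *Sparc* encodes a secreted protein that binds collagen and guides fibril assembly. It had 7501, 10671 and 11827 CPM in wild-type and 4666, 5424 and 6720 CPM in *Scx*-/- bladder. The genotypes did not overlap, and the log2 fold change was −0.91 (SE 0.18, edgeR adjusted *p* 0.000579). *Serpinh1* encodes Hsp47, the chaperone of procollagen in the endoplasmic reticulum. Its values were 1015, 1772 and 1946 CPM in wild-type and 744, 793 and 580.2 CPM in *Scx*-/- bladder, with wild-type replicate 1 closest to the *Scx*-/- range. The log2 fold change was −1.22 (SE 0.26, edgeR adjusted *p* 0.00255).

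*Pcolce* encodes an enhancer of the protease that removes the C-terminal propeptide of procollagen. It had 338, 389 and 727 CPM in wild-type and 169.7, 147 and 160.5 CPM in *Scx*-/- bladder. The *Scx*-/- values lay close together, and wild-type replicate 3 stood above the other wild-type values. Its log2 fold change was −1.67 (SE 0.36, edgeR adjusted *p* 0.0045). *Adamts2*, which removes the N-terminal propeptide, had means of 228 ± 74.9 and 81.8 ± 50.8 CPM (SD, n = 3 each) and passed the study's thresholds only. *Loxl2*, a lysyl oxidase that crosslinks collagen, also passed those thresholds (log2 fold change −1.20, SE 0.50), with overlap between genotypes. *Lox* and *P4hb*, an oxidase and a prolyl hydroxylase subunit, had log2 fold changes of −0.71 and −0.31 and unadjusted *p* values in edgeR of 0.196 and 0.302.

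Elastic fibre genes took 0.317% to 0.420% of counts in wild-type and 0.217% to 0.270% in *Scx*-/- bladder, a ratio of the means of 0.698. Small proteoglycans and matrix glycoproteins took 1.09% to 1.17% and 0.857% to 0.937%, a ratio of 0.791. Neither pair of ranges overlapped. *Fbn1*, which encodes the microfibril protein fibrillin-1, had 308, 305 and 560.3 CPM in wild-type and 141, 106 and 103 CPM in *Scx*-/- bladder. It was the only 1 of 15 elastic fibre genes with an adjusted *p* under 0.05 (log2 fold change −1.80, SE 0.39, edgeR adjusted *p* 0.00519), and its genotypes did not overlap. *Mfap4*, another microfibril gene, was lower at the study's thresholds, and *Eln*, which encodes elastin, had means of 503 ± 157 and 305 ± 66.8 CPM (SD, n = 3 each) and an unadjusted *p* of 0.0175 in edgeR. Of 22 small proteoglycans and glycoproteins, 0 had an adjusted *p* under 0.05 in edgeR's quasi-likelihood test or in DESeq2. At an unadjusted *p* under 0.05 in edgeR, 5 were lower and 1 higher, beside 4.33% of all genes in either direction. *Fmod* and *Tnc* were lower and *Omd* was higher at the study's thresholds. *Fmod* encodes fibromodulin, a regulator of fibril width, and had means of 88.2 ± 39.9 and 24.9 ± 16.4 CPM (SD, n = 3 each). *Omd*, which encodes osteomodulin, was at 0 in all wild-type libraries and at 9.36 to 37.0 CPM in the *Scx*-/- libraries. *Dcn*, which encodes the abundant proteoglycan decorin, had 4740 to 5997 CPM in wild-type and 4101 to 4695 CPM in *Scx*-/- bladder, with no overlap and a log2 fold change of −0.38 (SE 0.19).

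Of the basement membrane genes and of the proteases and inhibitors, 1 each passed the study's thresholds. The share of basement membrane genes was 0.412% to 0.499% in wild-type and 0.309% to 0.465% in *Scx*-/- bladder, and the ranges overlapped. *Nid2*, which encodes the laminin-binding protein nidogen-2, was the only 1 of 22 at the study's thresholds, with 109, 64.2 and 135 CPM in wild-type and 2.42, 12.5 and 20.6 CPM in *Scx*-/- bladder. Its genotypes did not overlap, and its log2 fold change was −3.24 (SE 0.91, edgeR adjusted *p* 0.174). The most abundant member, *Col4a1*, a chain of type IV collagen, had a log2 fold change of −0.28 (SE 0.24). Among 19 proteases and inhibitors, *Htra1*, a secreted serine protease, passed the study's thresholds with means of 280 ± 34.5 and 133 ± 69.6 CPM (SD, n = 3 each). *Mmp2* and *Mmp14*, collagen-degrading metalloproteinases, had log2 fold changes of 0.10 and −0.38.

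The matrix calls also varied with single libraries. The log2 fold change of *Col3a1* stayed between −1.21 and −0.84 over all alternatives, while its adjusted *p* ranged from 1.48e-07 to 0.238, the highest being that of edgeR after filterByExpr. Without wild-type replicate 3, 4 of the 8 matrix genes kept their call and *Col14a1*, *Serpinh1*, *Pcolce* and *Fbn1* did not. *Serpinh1* also lost it without wild-type replicate 2 or without *Scx*-/- replicate 3, and *Fbn1* lost it in limma-voom after filterByExpr.

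Fibroblast markers had fold changes mostly below 0, while their summed share overlapped between genotypes. They took 1.67%, 1.25% and 1.67% of counts in wild-type and 1.37%, 1.29% and 1.44% in *Scx*-/- bladder. Among the 19 markers of at least 50 CPM, the median log2 fold change was −0.52, and 14 of the 19 were below 0. At an unadjusted *p* under 0.05 in edgeR, 6 of 20 were lower and 0 higher, beside 4.33% of all genes in either direction. Of the 20 fibroblast markers, *Dpt* was lower at an adjusted *p* under 0.05 in edgeR's quasi-likelihood test, and *Dpt* and *Clec3b* were lower at the study's thresholds. *Dpt* had 522, 161 and 499 CPM in wild-type and 160, 93.6 and 169 CPM in *Scx*-/- bladder, with an edgeR adjusted *p* of 0.0439, and it lost its call under 15 of 18 alternatives. The count of collagen chains over that of 15 fibroblast markers outside the matrix lists was 3.43, 5.80 and 5.24 in wild-type and 2.20, 2.98 and 2.62 in *Scx*-/- bladder. This ratio, chosen after the values were seen, did not overlap between genotypes, nor did the ratios of collagen chains to smooth muscle genes (0.359 to 0.735 against 0.225 to 0.312) and to uroplakins (4.04 to 9.82 against 2.00 to 2.66).

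Smooth muscle contractile genes took 6.81%, 9.50% and 6.08% of counts in wild-type and 5.45%, 9.27% and 6.84% in *Scx*-/- bladder. Replicate 2 was highest in both genotypes, and the ranges overlapped. Of 28 genes tested, 0 had an adjusted *p* under 0.05 in edgeR's quasi-likelihood test or in DESeq2, and *Casq2*, a calcium-binding protein of the sarcoplasmic reticulum, was the only one lower at an unadjusted *p* under 0.05, passing the study's thresholds. *Acta2* and *Tagln*, which encode smooth muscle actin and transgelin, had log2 fold changes of −0.23 (SE 0.16) and −0.01 (SE 0.18), and *Myh11*, the smooth muscle myosin heavy chain, −0.03 (SE 0.18). Receptors and channels of the detrusor had 0 of 19 genes at either criterion in edgeR and 0 at an adjusted *p* under 0.05 in DESeq2, with 1 lower at an unadjusted *p* under 0.05, and their shares of 0.209% to 0.234% in wild-type and 0.202% to 0.283% in *Scx*-/- bladder overlapped.

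Urothelial RNA took a larger share in *Scx*-/- bladder. Urothelial keratins and regulators made up 1.24%, 1.31% and 1.20% of counts in wild-type and 2.00%, 1.49% and 1.70% in *Scx*-/- bladder, and uroplakins 0.727%, 0.765% and 0.454% against 0.819%, 0.782% and 0.938%. Neither pair of ranges overlapped, and an exact permutation test gave *p* = 0.1 for each, its smallest possible value. These lists too were chosen with earlier results of these data known. Of the 38 genes in both lists that were tested, 0 passed an adjusted *p* under 0.05 in edgeR or the study's thresholds, 3 were higher at an unadjusted *p* under 0.05, and DESeq2 called 1, *Ly6d*. *Ly6d*, a surface protein of stratified epithelia, had 1572, 1747 and 1630 CPM in wild-type and 3839, 2534 and 2523 CPM in *Scx*-/- bladder (log2 fold change 0.78, SE 0.22, edgeR adjusted *p* 0.208). In DESeq2 its adjusted *p* was 0.00239, and over all alternatives it ranged from 0.00239 to 1.0. *Krt7*, a keratin of simple and transitional epithelium, had means of 1026 ± 167 and 1679 ± 415 CPM (SD, n = 3 each), and *Upk1a*, a uroplakin tetraspanin, 2141 ± 583 and 3088 ± 983 CPM (SD, n = 3 each). The genotypes did not overlap for *Ly6d* and *Krt7* and overlapped for *Upk1a*. The part of these shares in the matrix result was not tested.

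**Figure D3:**
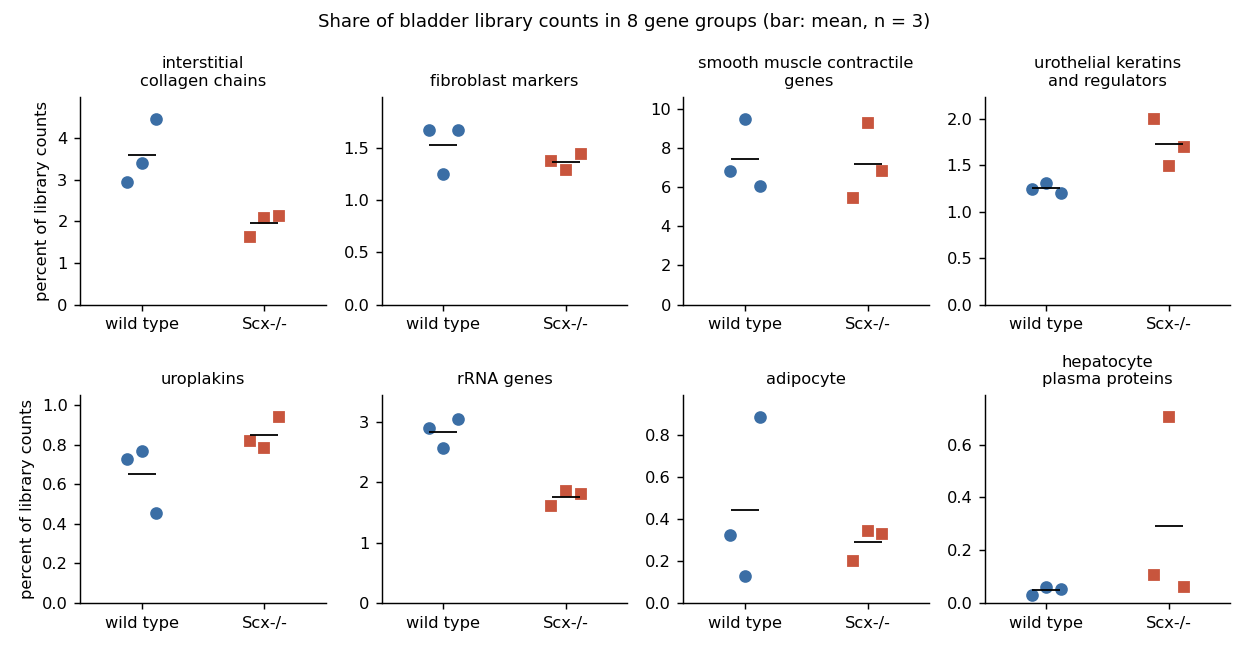
Percent of library counts (y, each panel from 0) in 8 gene groups for the 3 wild-type (blue circles) and 3 *Scx*-/- (red squares) bladder libraries, with black bars at the means. Collagen chains and rRNA genes are lower and urothelial keratins higher in all *Scx*-/- libraries, while fibroblast markers and smooth muscle genes overlap and 1 *Scx*-/- library stands apart in hepatocyte genes.

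Ribosomal RNA also took a smaller share of counts in *Scx*-/- bladder. *Rn18s-rs5*, which carries 18S rRNA sequence, and *Rnr1* and *Rnr2*, the mitochondrial rRNAs, together took 2.90%, 2.57% and 3.04% of counts in wild-type and 1.60%, 1.86% and 1.81% in *Scx*-/- bladder. The ranges did not overlap. The log2 fold changes were −1.05 (SE 0.20), −0.73 (SE 0.18) and −0.69 (SE 0.17), with edgeR adjusted *p* values of 0.000512, 0.0408 and 0.0335. *Rn18s-rs5* lost its call under 4 of 17 alternatives, among them those leaving out wild-type replicate 1 or *Scx*-/- replicate 3, and *Rnr1* and *Rnr2* under 11 of 17 each. Without the 3 rRNA genes in the fit, 12 genes had an adjusted *p* under 0.05 in edgeR, and the same 8 matrix genes were among them. The part of rRNA in the other differences was not tested.

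The higher genes of liver rested on 1 library. Hepatocyte plasma protein genes made up 0.0287%, 0.0594% and 0.0537% of counts in wild-type bladder and 0.105%, 0.704% and 0.0613% in *Scx*-/- bladder, so that *Scx*-/- replicate 2 stood far above all others. *Apoa2*, an apolipoprotein, was at 0 in the 3 wild-type libraries and at 24.2, 318 and 0 CPM in the *Scx*-/- libraries. Its summed level was at least 60.6-fold higher against a limit of 3 counts over the wild-type libraries, with an edgeR adjusted *p* of 6.31e-06. *Serpina1d*, *Serpina1c* and *Fga* were also at 0 in wild-type bladder, and at least 49.8-fold, 45.5-fold and 41.2-fold higher in *Scx*-/- bladder. *Serpina1d*, which is not in the list, had 0, 287 and 0 CPM in the *Scx*-/- libraries. It lost its call under 5 of 13 alternatives, among them those leaving out any one wild-type library. *Alb*, the gene of serum albumin, had 8.92 to 17.0 CPM in wild-type and 259, 3046 and 0 CPM in *Scx*-/- bladder. In this list 9 of 16 genes were higher at the study's thresholds and 3 at an adjusted *p* under 0.05 in edgeR. Without *Scx*-/- replicate 2 these counts were 2 and 0. *Ttr*, which encodes transthyretin, differed from the rest of the list in having 313, 349.5 and 263 CPM in the 3 *Scx*-/- libraries and 85.0, 53.5 and 155 CPM in wild-type bladder, with no overlap (log2 fold change 1.60, SE 0.42, edgeR adjusted *p* 0.0961). DESeq2 called *Ttr* with an adjusted *p* of 0.0263, within 0.0147 to 0.912 over all alternatives, and gave no adjusted *p* for *Apoa2*, *Serpina1c*, *Serpina1d* and *Fga*.

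Pancreatic and adipocyte genes also varied between libraries. Pancreatic acinar genes took 0.0320%, 0.0312% and 0.0970% of counts in wild-type and 0.0354%, 0.0540% and 0.198% in *Scx*-/- bladder, with replicate 3 highest in both genotypes. Of 18 tested, 4 were higher at the study's thresholds and 1 at an adjusted *p* under 0.05 in edgeR. Without *Scx*-/- replicate 3 both counts were 0. *Cela1*, an elastase gene of this list, had 56.1, 67.8 and 151 CPM in wild-type and 162, 169 and 309 CPM in *Scx*-/- bladder, without overlap. *Rnase1* had 5.10, 7.14 and 4.57 CPM in wild-type and 0, 62.4 and 259 CPM in *Scx*-/- bladder, and its adjusted *p* of 0.0439 in edgeR did not hold without *Scx*-/- replicate 3 or without any one wild-type library. Adipocyte genes took 0.325%, 0.126% and 0.884% of counts in wild-type and 0.198%, 0.340% and 0.326% in *Scx*-/- bladder. At the study's thresholds 5 of 15 adipocyte genes were lower and 1, *Plin4*, was higher. Without wild-type replicate 3, the library with the largest adipocyte share and the highest collagen, 0 were lower. The part of adipose tissue in the matrix values was not tested. Blood varied too, with globin and erythroid genes at 0.163% to 2.42% of counts in wild-type and 1.41% to 2.82% in *Scx*-/- bladder. Genes of prostate, seminal vesicle and vas deferens were at 0.00389% or less in all libraries.

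Immune, stress and secretory lists were read in the same way. Macrophage and dendritic cell genes took 0.0607% to 0.0874% of counts in wild-type and 0.0325% to 0.0582% in *Scx*-/- bladder, ranges that did not overlap, although 1 of 15 genes, *Tyrobp*, passed the study's thresholds. *Tyrobp*, an adaptor of myeloid receptors, had 58.9 to 137 CPM in wild-type and 19.4, 25.0 and 0 CPM in *Scx*-/- bladder. Metallothionein and glucocorticoid-responsive genes took 0.236% to 0.290% and 0.353% to 0.503%, also without overlap, with 0 of 13 genes at either criterion in edgeR, 3 higher at an unadjusted *p* under 0.05, and 1, *Mt1*, called by DESeq2. *Mt1*, a zinc-binding metallothionein, had 490, 341 and 336 CPM in wild-type and 645, 740 and 959 CPM in *Scx*-/- bladder. Its adjusted *p* was 0.499 in edgeR, 0.0314 in DESeq2 and 0.0314 to 1.0 over all alternatives. Of 22 endoplasmic reticulum chaperones, *Pdia6* and *Manf* were lower at the study's thresholds. At an unadjusted *p* under 0.05 in edgeR, 5 were lower and 0 higher, beside 4.33% of all genes in either direction. The CPM of the genotypes did not overlap for 4 of the 17 chaperones of at least 50 CPM, all lower, beside 6.09% lower and 6.7% higher over all 4091 genes of that level. The shares of the list, 0.343% to 0.474% in wild-type and 0.325% to 0.395% in *Scx*-/- bladder, overlapped. *Pdia6*, a disulphide isomerase, had means of 301 ± 122 and 117 ± 22.7 CPM (SD, n = 3 each), with no overlap.

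Genes of tendon progenitors and of signalling pathways were also examined. The tendon lineage list had 12 genes tested, of which *Col1a1* and *Col14a1* passed an adjusted *p* under 0.05 in edgeR and *Col14a1*, *Tnc* and *Fmod* the study's thresholds, all lower and all in the matrix lists as well. The tendon regulator *Mkx* and the tendon marker *Tnmd* had 2 and 3 counts in the 6 libraries together. Of 35 genes of BMP and TGF-beta signalling, *Bmp2* and *Bmp7* were higher at the study's thresholds, *Smad5* and *Bmpr1b* were among those lower, and 0 passed an adjusted *p* under 0.05 in edgeR or DESeq2, with 3 higher and 3 lower at an unadjusted *p* under 0.05. *Bmp7*, a growth factor of the BMP family, had 39.1, 39.3 and 6.86 CPM in wild-type and 63.0, 134 and 82.3 CPM in *Scx*-/- bladder. *Wnt2b*, a Wnt ligand, was at 44.2, 3.57 and 41.2 CPM in wild-type and 0 in all *Scx*-/- libraries. It was the only 1 of 29 Hedgehog and Wnt genes at the study's thresholds.

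Among genes of at least 50 CPM, 123 passed the study's thresholds without overlap between genotypes, 50 higher and 73 lower. The largest falls in this set were those of *Ttc28*, *Nid2*, *Nhsl2*, *Tyrobp*, *Blmh*, *Wfs1*, *Kdelr3*, *Smarcd2*, *Mast4* and *Gpc6*. *Nhsl2* had 119, 104 and 149 CPM in wild-type and 9.69, 21.8 and 12.3 CPM in *Scx*-/- bladder (log2 fold change −3.12, SE 0.79, edgeR adjusted *p* 0.0621). *Smarcd2*, a subunit of SWI/SNF chromatin remodelling complexes, had 192, 180.3 and 169 CPM in wild-type and 24.2, 87.4 and 12.3 CPM in *Scx*-/- bladder. *Wfs1* and *Kdelr3* encode proteins of the endoplasmic reticulum and of retrieval to it, and their log2 fold changes were −2.20 (SE 0.71) and −2.17 (SE 0.88). The largest rises were those of *Tgfa*, *Fkbp15*, *Abca8a*, *Rock1*, *Fa2h*, *Slc27a1*, *Noc2l*, *Fbp2*, *Opa1* and *Cirbp*. *Tgfa*, a ligand of the EGF receptor, had 0 to 17.8 CPM in wild-type and 59.3 to 202 CPM in *Scx*-/- bladder (log2 fold change 3.49, SE 0.89). *Cirbp*, a cold-inducible RNA-binding protein, had 69.7, 39.3 and 68.6 CPM in wild-type and 179, 247 and 292 CPM in *Scx*-/- bladder (log2 fold change 1.93, SE 0.49). Both had an edgeR adjusted *p* of 0.0627, and 0 of these 20 genes reached 0.05 in edgeR or DESeq2, while all 20 had an unadjusted *p* under 0.05 by the rule that chose them.

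Stomach and rectum, also hollow organs with a muscular wall, were used to ask whether the bladder effect differed from theirs. Intestine, another such organ, was not part of this test. In edgeR's interaction test over 17801 genes, the bladder effect differed from the stomach effect for 6 genes (0.0337%) and from the rectum effect for 39 (0.219%) at an adjusted *p* under 0.05, with 723 and 1141 genes at an unadjusted *p* under 0.05. No matrix gene was among the 6, and *Col1a1* was the only one among the 39. The same fit of 18 libraries called no matrix gene for the bladder effect itself, so missing calls cannot show that the effects are alike. The 39 also held *Sprr1a*, *Ly6d*, *Krt4*, *Scd1*, *Smarcd2* and *Ckm*, higher in *Scx*-/- rectum, and *Fga*, *Upk1a* and *Ttr*, lower there. The part of tissue composition in the rectum values was not tested. *Col1a1* had means of 3909 CPM in wild-type and 5644 CPM in *Scx*-/- rectum, and the difference of effects, bladder minus rectum, was −1.59 on the log2 scale (SE 0.37, edgeR adjusted *p* 0.0134). Over the 80 matrix genes of at least 50 CPM in bladder, the median log2 fold change was −0.62 in bladder, 0.02 in stomach and 0.00275 in rectum. The median difference of effects was −0.63 against stomach, beside −0.12 over all genes of at least 50 CPM in bladder. Against rectum it was −0.75, beside −0.37 over those genes. These medians describe the list, and for 79 of its 80 genes the difference did not pass the test.

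**Figure D4:**
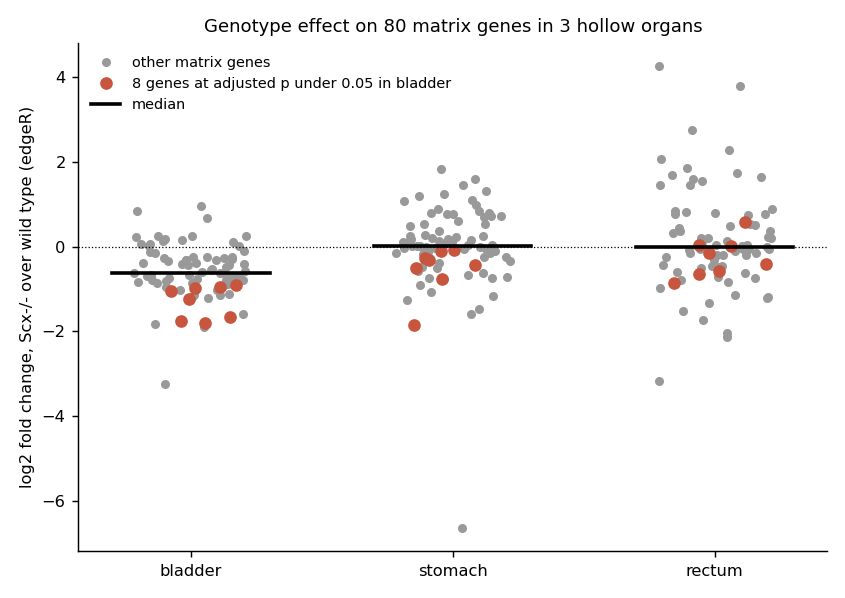
Each point is 1 of the 80 matrix genes of at least 50 CPM in bladder, with its edgeR log2 fold change, *Scx*-/- over wild type (y), in bladder, stomach and rectum (x, points spread sideways for visibility). The median (black bar) lies at −0.62 in bladder, 0.02 in stomach and 0.00275 in rectum, and the 8 genes with an adjusted *p* under 0.05 in bladder are red.

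The 8 matrix genes were followed through the 16 tissues as a description. *Col3a1* and *Col14a1* had their highest wild-type mean in bladder, at 9072 and 470 CPM, while *Col1a1*, *Col1a2* and *Sparc* were higher in bone. The log2 fold changes of all 8 were below 0 in bladder, kidney, stomach and vascular samples, and their median was below 0 in 15 of 16 tissues. The paper judged its vascular samples contaminated and left them out of its later analysis. The median was −1.14 in bladder, where the genes were chosen, −0.92 in intestine, −0.72 in heart and 0.14 in the samples labelled adipose. In those samples the pancreatic gene *Rnase1* had a wild-type mean of 36584 CPM, its highest of the 16 tissues. Outside bladder, *Serpinh1* in kidney was the only one at an adjusted *p* under 0.05 in the per-tissue edgeR fits, with means of 517 CPM in wild-type and 230 CPM in *Scx*-/- kidney (adjusted *p* 0.0175).

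**Figure D5:**
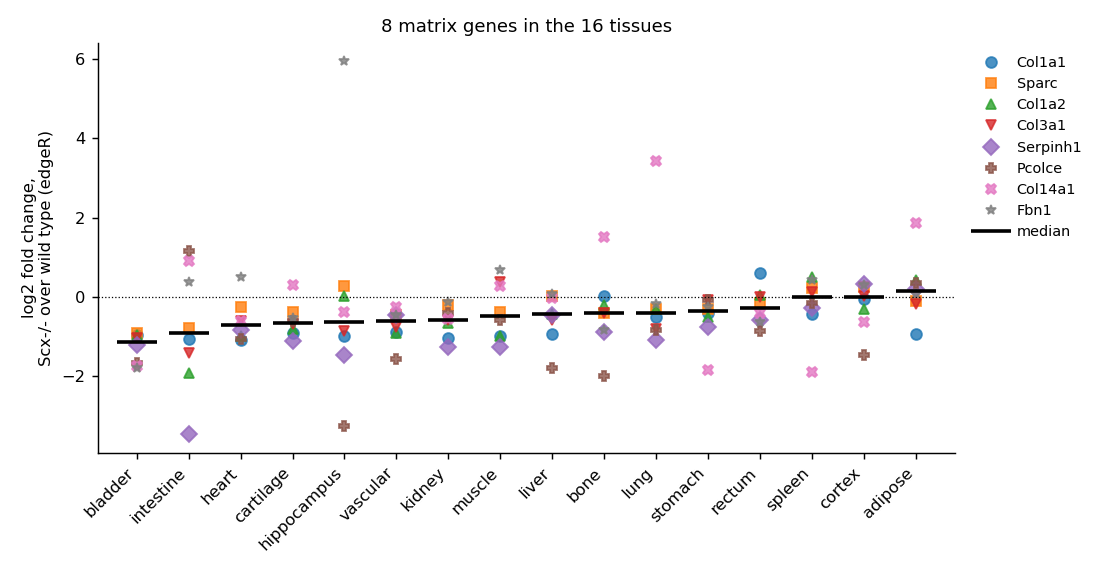
Log2 fold change, *Scx*-/- over wild type (y, edgeR fitted within each tissue), of the 8 matrix genes in the 16 tissues (x, ordered by the median, black bars), with 1 symbol per gene. The median is lowest in bladder, where the 8 genes were chosen, at −1.14, and highest in the samples labelled adipose, at 0.14.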

How the data were processed

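RNA was measured by MuSeq, in which the RNA of each sample receives a barcode at reverse transcription and samples are pooled before a library enriched for 3′ ends is made; the record of the series instead describes libraries based on Smart-seq2. The authors aligned reads with Bowtie2, at its defaults, to the mm10 build and summed them per gene with HTSeq, and the deposited values are these raw counts, without normalization. For versions, annotation, strand and molecular identifiers, nothing is stated in the labels or methods. Overlapping genes and near-identical copies, such as *Serpina1c* and *Serpina1d*, could share reads.

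Samples were grouped by their labels. Depth was 243008 to 587936 counts per bladder library. Genes at 0 in all 6 libraries were removed, and edgeR 4.0.16 (R 4.3.3, limma 3.58.1) was run with TMM factors, robust glmQLFit and glmQLFTest, and Benjamini-Hochberg adjustment over all genes tested. The authors used DESeq2, which was an alternative here (1.42.0). CPM was taken on library totals. The interaction with stomach and rectum was fitted to 18 libraries. Shares of gene lists were compared by an exact two-sided permutation test, which cannot go below 0.1 with 3 against 3 libraries. Figures and summaries were made with Python 3.11.15, numpy 2.4.6, pandas 2.3.3, scipy 1.17.1 and matplotlib 3.10.9. Scripts were tested on simulated data.

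The 44 gene lists and the comparison were chosen with earlier results of these data known. Genes were named if they were *Scx*, had an adjusted *p* under 0.05, were among the 10 largest rises or falls at the study's thresholds with at least 50 CPM and no overlap, or in a list were among the 3 most abundant members or passed the study's thresholds. The text prints part of these genes, and *Col5a2*, *Col6a1*, *Col6a2*, *Lox*, *Myh11*, *Mkx*, *Tnmd*, *Adh1*, *Hspa9* and *Lgals3* were named after their values were seen.

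Alternatives were RLE factors or library totals as scaling, filterByExpr, a summed count of at least 10, DESeq2, no robust estimation, a joint fit of 18 libraries, a replicate block, thinned libraries, and each library left out. After the data were seen, a fit without rRNA genes, DESeq2 and limma-voom after filterByExpr, and collagen ratios were added. Replicate numbers did not pair samples: deviations of same-numbered libraries correlated at −0.0166 to −0.0001. Replicates of a genotype differed by more than sampling noise (chi-square per degree of freedom 8.76 to 11.3).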

Additional observations from a re-analysis of the deposited data

Results flagged for a closer look

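The effect of genotype differed between bladder and rectum, by edgeR's interaction test at an adjusted *p* under 0.05, for 10 of the genes that the naming rule covers. Values are differences of log2 fold changes, bladder minus rectum, and they depend on the rectum libraries as much as on the bladder libraries. *Col1a1* differed by −1.59, being lower in *Scx*-/- bladder and at 3909 CPM in wild-type and 5644 CPM in *Scx*-/- rectum. *Smarcd2* differed by −5.12, with log2 fold changes of −2.16 in bladder and 2.96 in rectum. *Scd1*, a fatty acid desaturase, differed by −4.73, with −1.03 in bladder and 3.66 in rectum. *Ttr* differed by 2.89, with 1.60 in bladder and −1.39 in rectum. *Fga*, at 0 CPM in wild-type bladder and in *Scx*-/- rectum, had a fitted difference of 13.75 that is no measure of size. *Upk1a* differed by 2.85, with 0.44 in bladder and −2.23 in rectum.

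The epithelial genes *Sprr1a*, *Ly6d* and *Krt4* were at 0 CPM in wild-type rectum and at 765, 926 and 673 CPM in *Scx*-/- rectum, so that their fitted differences of −10.45, −10.07 and −10.01 are no measure of size. Their log2 fold changes in bladder were 0.32, 0.78 and 0.61. *Ckm*, the muscle creatine kinase, differed by −2.75, with −0.22 in bladder and 2.44 in rectum. Which cells of the rectum libraries hold this RNA was not tested.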

How the results depend on the processing

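The 17 genes at an adjusted *p* under 0.05 in edgeR became 0 after filterByExpr (323 at an unadjusted *p* under 0.05) and 5 in the joint fit of 18 libraries. The number called, not always of the same genes, was 17 with RLE scaling and 16 with library totals, neither with *Rnr1*, *Rnr2* or *Dpt*, 18 with DESeq2 and 11 to 28 with 1 library left out, the lowest without wild-type replicate 3 and the highest without *Scx*-/- replicate 3. The 8 lower matrix genes became 0 after filterByExpr and in the joint fit, and 4 to 9 with 1 library left out, lowest without wild-type replicate 3. The prior degrees of freedom that edgeR estimated were infinite over all 15160 genes and 12.5 after filterByExpr, beside 4 residual degrees of freedom, and the cause of the lost calls was not tested further. The 570 genes at the study's thresholds became 241 after filterByExpr, 288 with DESeq2 and 255 with limma-voom on those 7093 genes. With the replicate block they were 330, and the genes at an adjusted *p* under 0.05 were 17; the replicate numbers are shared names only. Leaving out 1 library gave 392 to 678. The 6 genes that differed from stomach became 0 after filterByExpr (323 at an unadjusted *p* under 0.05), 1 with the replicate block, and 1 to 10 with 1 bladder library left out, lowest without *Scx*-/- replicate 2. DESeq2 was not run for that test. Scaling moved the median log2 fold change of genes of at least 50 CPM by 0.0585 to 0.0726. Over all results and alternatives, 0 reversed direction, 4700 stayed on their side of the threshold or within their spread, 84 became weaker, 55 stronger and 294 moved. The lower depth of *Scx*-/- libraries limits what can be read for genes under about 50 CPM.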

Other observations

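DESeq2 called 18 genes in bladder at an adjusted *p* under 0.05. They held the 8 matrix genes and the 3 rRNA genes called by edgeR, and 7 genes that edgeR did not call, all higher in *Scx*-/- bladder: *Adh1*, *Hspa9*, *Lgals3*, *Ly6d*, *Mt1*, *Plin4* and *Ttr*. *Lgals3*, which encodes galectin-3, and *Adh1*, an alcohol dehydrogenase, had DESeq2 log2 fold changes of 1.02 and 0.81, with adjusted *p* values of 0.036 in DESeq2 and 0.568 in edgeR for *Lgals3* and of 0.0411 and 0.804 for *Adh1*. *Hspa9*, a mitochondrial chaperone, had 1.18, with 0.0263 and 0.499. Over all alternatives the adjusted *p* of each of these 3 genes reached 1.0.

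Shares of 4 further lists overlapped between genotypes. Nuclear genes of the respiratory chain took 1.82% to 1.99% of counts in wild-type and 1.87% to 1.99% in *Scx*-/- bladder, and ribosomal protein genes 2.27% to 2.61% and 2.31% to 3.04%. Of 47 ribosomal protein genes of at least 50 CPM, 11 were higher and 1 lower without overlap between genotypes, beside 6.7% and 6.09% of all genes of that level. At an unadjusted *p* under 0.05 in edgeR, 3 of 75 were higher and 1 lower. Immediate early genes, which respond within minutes to handling, took 0.140% to 0.291% and 0.157% to 0.258%, and heat shock genes 0.288% to 0.326% and 0.285% to 0.315%.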
